A study of Mus musculus with 16 samples.

Results

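Expression of *Trp53* and of 9 genes that its protein product is known to activate was examined in mammary tumors of PyMT mice, with the gene trap (gene trap x PyMT) or without it (wildtype x PyMT). The 10 genes were taken by symbol from the 23609 genes of the tumor RNA-seq table, and every gene was found. All tumors carried PyMT, a polyomavirus oncogene (middle T antigen) driven in the mammary epithelium by the MMTV promoter. Wildtype tumors came from littermates without the trap, on a cross of FVB/MMTV-PyMT with C57BL/6 mice. Gene trap tumors came from littermates heterozygous for a lentiviral trap in the first exon of *Resf1*, which truncates the *Resf1* message and expresses an EGFP-cre fusion. The gene trap is a single insertion line and a hypomorph, with a wildtype *Resf1* copy inherited beside the trapped copy. No treatment was given, and the age of the animals is not given in the sources used here. The labels describe 16 tumors, of which 10 could be matched to a column of values, 5 per group.

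p53, the protein encoded by *Trp53*, is a transcription factor that responds to DNA damage and oncogene activity. It is held low by MDM2, a ubiquitin ligase whose own gene is a p53 target, so that the pair form a feedback loop. Because p53 is controlled largely through the stability and modification of the protein, the RNA of its target genes is commonly used to read its activity. The targets arrest the cell cycle, repair DNA, adjust metabolism or trigger cell death, and p53 is a frequently lost tumor suppressor in breast cancer.

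The values are normalized estimated counts, in which the authors had already removed differences in library size by median ratio, so the depth of each tumor is unknown. Tests were run with limma on log2(value + 1) over the 21034 genes with a mean of at least 10, and a p below 0.05 after Benjamini-Hochberg adjustment over all of them was a call. *Resf1* itself was at 3517 to 4487 in wildtype tumors and at 3066 to 4029 in the trap carriers, and no trap carrier was above the wildtype median. Its log2 fold change was -0.22 (95% interval -0.42 to -0.02), with an unadjusted p of 0.0313 and an adjusted p of 0.9997 in limma. The epithelial markers *Epcam*, *Krt8*, *Krt18* and *Cdh1* were high in every tumor, with a summed value of 67574 to 87021 in wildtype and 70305 to 91151 in gene trap tumors. Over the tested genes, gene trap replicate 2 stood far apart. The first principal component, with 31.1% of the variance, placed gene trap replicate 2 at 91.8 and the other 9 tumors between -18.6 and -4.78. Wildtype replicate 5 was at -18.6, the far end of the remaining tumors, and the next, gene trap replicate 3, was at -11.5. Over all tested genes, 11.7% were lowest and 10.1% highest in wildtype replicate 5, but it was lowest for 7 of the 10 members. A member's difference is also given without gene trap replicate 2 or wildtype replicate 5. This was done where leaving that tumor out moved the difference by over 1.5 times or turned its direction.

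Promoter sequence is shown for the members with a near match to the motif that p53 is known to recognize. The p53 response element is made of 2 decamers, and each decamer reads the same on both strands in its consensus form. RefSeq promoter windows of GRCm38.p6, from 250 bases before to 50 bases after the start site, were available for 8 of the 10 genes, and were searched for 2 decamers separated by at most 13 bases. *Ccng1* and *Bax* each matched at 19 of 20 letters, and 1.09% of the 32851 mouse windows held a match at least as close. In the lines below, read 5′ to 3′ on the gene's strand, capitals mark letters that match the consensus and lower case marks a mismatch or the spacer.
Ccng1: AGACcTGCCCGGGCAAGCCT
Bax: AAGCATaTCCcAGGCAAGCTT
The *Ccng1* run is at chr11:40755462-40755481 on the minus strand and begins 195 bases before the start site. The *Bax* run is at chr7:45467090-45467110 on the minus strand, begins 212 bases before the start site and has a spacer of 1 base. The closest runs in *Trp53* and *Bbc3* had 3 mismatches, and 45.1% of all windows held a run with 3 or fewer. Those of *Mdm2*, *Sesn2*, *Phlda3* and *Eda2r* had 4, and 89.3% of windows held a run with 4 or fewer. *Cdkn1a*, which encodes the cell cycle inhibitor p21 and is not among the 10 genes, had 0 mismatches with a spacer of 12 bases. With any spacer of at most 13 bases, 24 windows (0.0731%) held a run with 0 mismatches. The well known p53 element of *Mdm2* lies in its first intron and is outside such a window. A match is a sequence description, and binding was not measured.

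The targets differed widely in level. Per kilobase of merged exon (GENCODE M21), *Ccng1*, which encodes cyclin G1, had the highest normalized value of the 10, with a median of 1605 over the tumors. *Trp53inp1* followed at 1038 and *Bax* at 724, and these 3 genes kept that order in every tumor. *Phlda3* at 345 and *Mdm2* at 337 per kilobase could not be ordered, since *Mdm2* was the higher in 6 of the 10 tumors. *Trp53* itself, at 247 per kilobase, was above *Mdm2* in 1 tumor and above *Sesn2* in all. *Sesn2* at 125 and *Bbc3* at 114 exchanged places in 2 tumors. *Zmat3* at 68.5 and *Eda2r* at 35.3 per kilobase were the lowest 2 in every tumor.

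No difference between gene trap and wildtype tumors passed the test in any of the 10 genes. The adjusted p of each was 0.9997 in limma, and 0 of 10 had an unadjusted p below 0.05. Across all tested genes, 0% (0 of 21034) had an adjusted p below 0.05, and 2.28% (479) had an unadjusted p below 0.05. The normalized values of the groups overlapped in all 10 genes, while they did not overlap in 0.528% (111) of tested genes. The estimate was higher in gene trap tumors for 6 members and lower for 4, with a median log2 fold change of 0.06, beside 0.0047 and 51.4% of genes higher over the whole table. In bulk tumors, fewer cells of a type and less RNA per cell cannot be told apart. The 95% intervals below give the differences that these data allow, and a p above the threshold does not show that levels were equal.

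**Figure D1:**
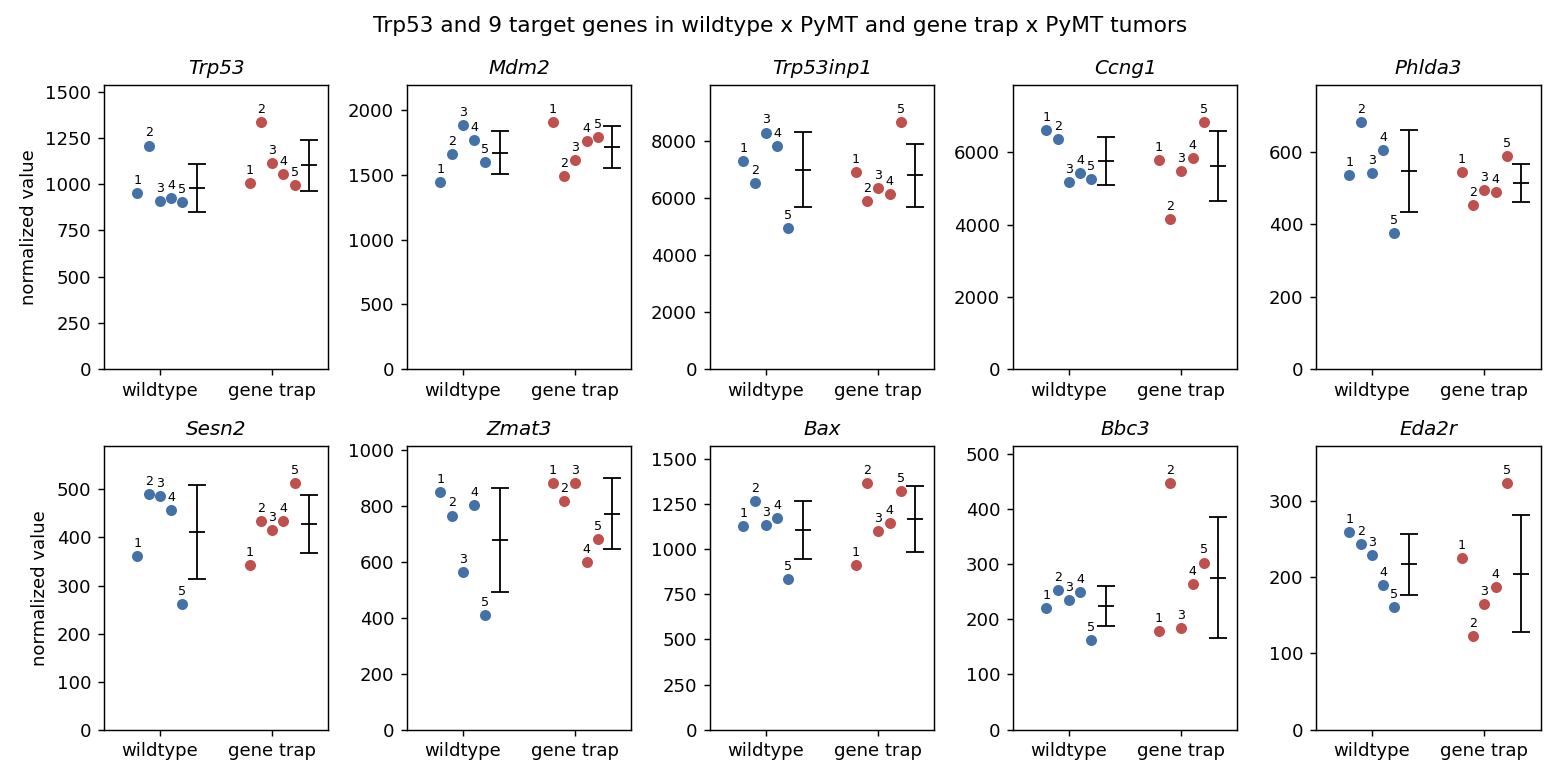
Normalized values (linear axes from 0) of *Trp53* and 9 target genes in 5 wildtype x PyMT tumors (blue) and 5 gene trap x PyMT tumors (red), with the replicate number above each point and the mean with SD as a black bar to the right. The groups overlap in every panel, and wildtype replicate 5 is the lowest point of 7 panels.

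*Trp53* (ENSMUSG00000059552) had normalized values of 952, 1209, 907, 923 and 902 in wildtype replicates 1 to 5, and of 1005, 1337, 1117, 1054 and 995 in gene trap replicates 1 to 5. All 5 gene trap tumors were above the wildtype median, but wildtype replicate 2 was above 4 of them. The log2 fold change was 0.17 (95% interval -0.06 to 0.40), and an exact two-sided permutation test gave p = 0.167, where 5 against 5 tumors allow 0.00794 at the least. This estimate leaned on 2 tumors. Without wildtype replicate 2 it was 0.25, with an unadjusted p of 0.0239 and an adjusted p of 0.989 in limma, and without gene trap replicate 2 it was 0.10. The processed pseudogene *Trp53-ps*, which could share reads with *Trp53*, was at 20.99 in gene trap replicate 2 and at 39.0 to 66.1 elsewhere. *Wrap53*, which overlaps *Trp53* on the opposite strand, was at 330 to 407 in wildtype and 340 to 432 in gene trap tumors (log2 fold change 0.13, 95% interval -0.09 to 0.35). Libraries were made with a stranded kit, but whether the counting used strand is not given in the sources used here.

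The feedback genes come next. *Mdm2* (ENSMUSG00000020184), the main inhibitor of p53, was at 1446, 1661, 1888, 1770 and 1596 in wildtype replicates 1 to 5 and at 1909, 1489, 1618, 1765 and 1789 in gene trap replicates 1 to 5. It was the steadiest member, with 1.32-fold between its lowest and highest tumor, and its log2 fold change was 0.04 (95% interval -0.16 to 0.23; exact permutation p = 0.667). It was 0.02 without wildtype replicate 5 and 0.09 without gene trap replicate 2. *Trp53inp1* (ENSMUSG00000028211), a p53 target whose product promotes p53 phosphorylation and autophagy, was at 7307, 6532, 8302, 7842 and 4946 in wildtype tumors and at 6904, 5910, 6357, 6139 and 8672 in gene trap tumors, in replicate order. Its lowest tumor was wildtype replicate 5 and its highest gene trap replicate 5, so each group held an extreme. The log2 fold change was -0.03 (95% interval -0.34 to 0.28; exact permutation p = 0.865), -0.15 without wildtype replicate 5 and 0.02 without gene trap replicate 2.

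Among the targets that act in arrest, stress and RNA control, *Ccng1* (ENSMUSG00000020326) was at 6604, 6372, 5187, 5417 and 5253 in wildtype replicates 1 to 5 and at 5798, 4148, 5472, 5836 and 6840 in gene trap replicates 1 to 5. Gene trap tumors held both its lowest and its highest value, and the log2 fold change was -0.05 (95% interval -0.32 to 0.22). It was -0.08 without wildtype replicate 5 and turned to 0.06 without gene trap replicate 2. *Sesn2* (ENSMUSG00000028893) encodes sestrin 2, a stress protein that restrains mTORC1. It was at 361, 490, 486, 457 and 262 in wildtype tumors and at 342, 435, 415, 434 and 514 in gene trap tumors. Wildtype replicate 5 was its lowest tumor, and the log2 fold change was 0.08 (95% interval -0.30 to 0.47) with that tumor and -0.07 without it.

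*Phlda3* (ENSMUSG00000041801), whose product competes with AKT for membrane lipids, was at 535, 682, 540, 604 and 376 in wildtype replicates 1 to 5 and at 545, 454, 495, 488 and 589 in gene trap replicates 1 to 5. All gene trap tumors lay inside the wildtype range, and the log2 fold change was -0.07 (95% interval -0.39 to 0.25), -0.20 without wildtype replicate 5 and -0.03 without gene trap replicate 2. *Zmat3* (ENSMUSG00000027663) encodes a zinc finger RNA-binding protein that controls splicing. It was at 850, 765, 563, 803 and 411 in wildtype tumors and at 882, 817, 881, 597 and 682 in gene trap tumors. The lowest value was again wildtype replicate 5, and the log2 fold change of 0.22 (95% interval -0.20 to 0.64; exact permutation p = 0.389) was 0.05 without it.

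Of the cell death targets, *Bbc3* and *Eda2r* had the widest ranges of the 10 genes. *Bax* (ENSMUSG00000003873), a pore former of the mitochondrial outer membrane, was at 1129, 1266, 1134, 1175 and 835 in wildtype replicates 1 to 5 and at 912, 1369, 1103, 1147 and 1321 in gene trap replicates 1 to 5. Its lowest value was in wildtype replicate 5 and its highest in gene trap replicate 2, and the log2 fold change was 0.08 (95% interval -0.21 to 0.37). It turned to -0.02 without wildtype replicate 5 and was 0.02 without gene trap replicate 2. *Bbc3* (ENSMUSG00000002083) encodes PUMA, a BH3-only activator of BAX. It was at 220, 253, 235, 250 and 163 in wildtype tumors and at 178, 447, 184, 264 and 303 in gene trap tumors, a range of 2.75-fold. Gene trap replicate 2 was far above the other 9 tumors. The log2 fold change of 0.23 (95% interval -0.29 to 0.74) was 0.03 without that tumor and 0.12 without wildtype replicate 5. *Eda2r* (ENSMUSG00000034457), a member of the TNF receptor family encoded on the X chromosome, was at 260, 243, 229, 190 and 161 in wildtype tumors and at 225, 123, 164, 187 and 324 in gene trap tumors. Gene trap tumors held the lowest (replicate 2) and the highest (replicate 5) value, 2.64-fold apart. The log2 fold change was -0.14 (95% interval -0.65 to 0.37; exact permutation p = 0.595). It was -0.24 without wildtype replicate 5 and turned to 0.03 without gene trap replicate 2.

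**Figure D2:**
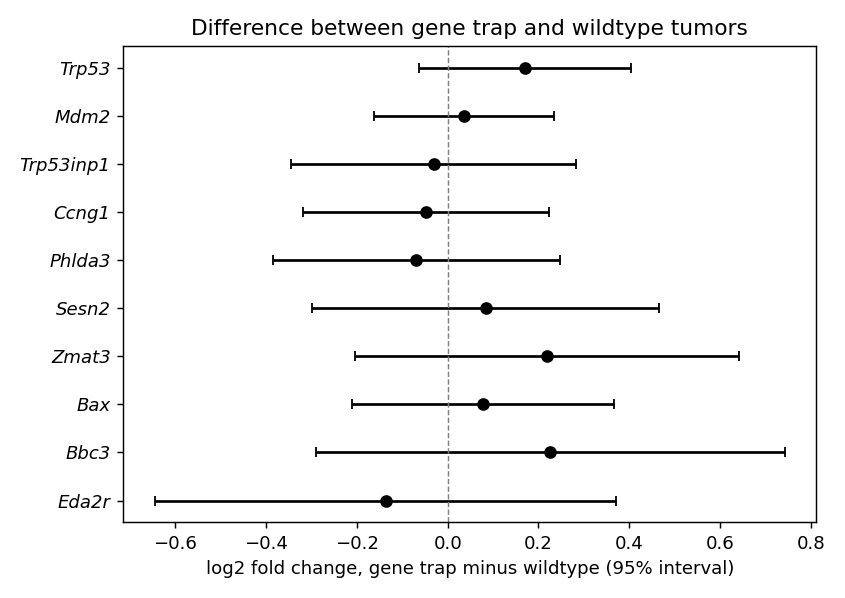
Log2 fold change (gene trap minus wildtype, x axis, on the log2(value + 1) scale) of each gene from limma over 5 and 5 tumors, with points for the estimate and bars for its 95% interval. Every interval includes 0, and the estimates lie between -0.14 (*Eda2r*) and 0.23 (*Bbc3*).

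The rest of the pathway was examined through 9 lists with 89 genes, all of which passed the filter on low values. Of these, 0 of 89 had an adjusted p below 0.05 and 0 had an unadjusted p below 0.05, and 41 were higher and 48 lower in gene trap tumors. Of the 17 activators, kinases and cofactors of p53, 5 were higher and 12 lower, with a median log2 fold change of -0.03. *Cdkn2a*, whose ARF product inhibits MDM2, lay between 38.2 and 108 in wildtype and between 32.0 and 85.8 in gene trap tumors (log2 fold change -0.28, 95% interval -0.99 to 0.42). The values are per gene, so the ARF transcript was not measured on its own. Within this list the smallest p belonged to *Ppp1r13b* (ASPP1, log2 fold change -0.12) and *Usp10*, a deubiquitinase of p53 (0.11). Of the 8 inhibitors, 4 were higher and 4 lower. They include *Mdm4*, which binds and represses p53 (log2 fold change 0.09, 95% interval -0.12 to 0.30), and the phosphatase *Ppm1d* (0.09, 95% interval -0.06 to 0.25).

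The family member *Trp63*, which marks basal and myoepithelial cells of the mammary gland, had the smallest unadjusted limma p of the 89 genes (0.0560). It was at 954, 638, 659, 755 and 1159 in wildtype replicates 1 to 5 and at 691, 521, 663, 551 and 766 in gene trap replicates 1 to 5. The groups overlapped, and the log2 fold change was -0.36 (95% interval -0.73 to 0.01). Leaving out single tumors gave -0.23 (without wildtype replicate 5) to -0.45 (without wildtype replicate 2), with unadjusted limma p of 0.149 and 0.0248. That p was 0.0318 without wildtype replicate 3, 0.0348 without gene trap replicate 5 and 0.00942 with the replicate number as a further factor. The adjusted p was 0.989 or above in all of these fits. *Trp73* was low in all tumors, between 7.10 and 30.7, with a log2 fold change of -0.13 (95% interval -1.02 to 0.76).

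The 48 other p53 targets had a median log2 fold change of 0.01, with 27 higher and 21 lower. *Cdkn1a* was at 942, 926, 587, 889 and 248 in wildtype replicates 1 to 5 and at 743, 885, 703, 642 and 850 in gene trap replicates 1 to 5. The value of 248 stood far below the other 9 tumors. Its log2 fold change was 0.23 (95% interval -0.45 to 0.91) over all tumors and -0.11 without wildtype replicate 5. *Btg2*, an antiproliferative gene, was at 5730 in wildtype replicate 4 and at 1422 to 3252 in the other tumors. Its log2 fold change was -0.56 (95% interval -1.19 to 0.06), and -0.28 without that tumor.

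By function, 5 of 10 arrest targets, 6 of 12 cell death targets, 6 of 7 DNA repair targets, 7 of 13 metabolism and redox targets and 3 of 6 secreted and other targets were higher in gene trap tumors. The smallest p in each came from *Btg2* and *Plk3* (a stress kinase, log2 fold change -0.21), from *Aen* (a p53-induced exonuclease, 0.22) and *Pmaip1* (NOXA, 0.15), and from *Ercc5* (-0.15) and *Ddb2* (0.11), which act in nucleotide excision repair. They were *Lpin1* (a phosphatidate phosphatase, -0.15) and *Aldh4a1* (a proline catabolic enzyme, 0.14) for metabolism, and the angiogenesis inhibitor *Thbs1* (-0.23) and the noncoding RNA *Trp53cor1* (0.36) for the last list. Of 14 cell cycle genes that p53 is known to repress through p21, 5 were higher and 9 lower, with *Mki67* at -0.10 and *Birc5* (survivin) at -0.08. These estimates were small and several leaned on single tumors. Without wildtype replicate 5, *Aen* was at 0.12, *Trp53cor1* at 0.16, *Mki67* at -0.0030, *Birc5* at -0.04, *Cdkn2a* at -0.47 and *Trp73* at -0.30. Without gene trap replicate 2, *Ercc5* was at -0.06, *Ddb2* at 0.065, *Trp53cor1* at 0.22, *Mki67* at -0.02, *Cdkn2a* at -0.45 and *Trp73* at -0.04. *Trp53cor1* was at 0.0147 without both tumors and had a 95% interval of -0.31 to 1.04 over all 10. *Thbs1*, with a 95% interval of -0.62 to 0.17, ranged from -0.40 without wildtype replicate 3 to -0.13 without wildtype replicate 4 or gene trap replicate 5.

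Single tumors stood apart for several targets at once. Wildtype replicate 5 had the lowest normalized value of the 10 tumors for *Trp53* and for 6 of the 9 targets, *Sesn2*, *Phlda3*, *Bbc3*, *Bax*, *Trp53inp1* and *Zmat3*. Over all tested genes, 11.7% (2469) were lowest in that tumor. On the log2 scale these 6 targets were below the median of the other 9 tumors by 0.46 (*Bax*) to 0.96 (*Zmat3*), while *Trp53* was lower by 0.16. The other 3 targets were not lowest there, with deviations of -0.14 for *Mdm2* and *Ccng1* and -0.48 for *Eda2r*. *Cdkn1a* deviated by -1.77, and 11 of the 48 other targets (22.9%) were lowest in this tumor, among them *Aen*, *Sulf2*, *Fdxr*, *Sco2*, *Ei24*, *Gadd45a* and *Tnfrsf10b*, named after their values were seen. The mean z score of these 48 was -0.31 there, close to -0.29 in gene trap replicate 3 and -0.26 in wildtype replicate 3. Of the 48, 2 were highest in wildtype replicate 5, *Tigar* and *Gls2*.

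The same tumor differed in other ways. *Mki67*, the proliferation marker, was at 22013, its highest value, and 3 of the 14 cell cycle genes were highest there (10.1% of all tested genes were), while 10 of the 14 were highest in gene trap replicate 4, where 8.74% of all tested genes were highest. The measured skeletal muscle markers (*Acta1* and *Ckm*, 2 of 3) summed to 6907 in wildtype replicate 5 and to 450 to 3424 in the other tumors. The 3 endothelial markers summed to 3543 there and to 1710 to 3227 elsewhere. *Epcam* had its lowest value, 19190, although the 4 epithelial markers together, at 72033, lay inside the range of the other tumors. The part of these differences in the low target values was not tested. With wildtype replicate 5 and gene trap replicate 2 both left out, an alternative chosen after seeing the data, 0 of 10 members had an adjusted p below 0.05.

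Gene trap replicate 5 was the other extreme for the 9 targets. It had the highest value for 4 of 9, *Ccng1*, *Sesn2*, *Eda2r* and *Trp53inp1*, where 8.09% of all tested genes were highest. The mean z score of the 9 targets was 0.95 there, -1.50 in wildtype replicate 5 and -0.30 to 0.53 in the other 8 tumors. The 48 other p53 targets were not extreme in gene trap replicate 5, with a mean z score of -0.01, 5 highest and 5 lowest. *Trp53* RNA was at 995 in this tumor, the lowest value of the gene trap tumors, and 7 of the 14 cell cycle genes were lowest there, as 7.59% of all tested genes were. In gene trap replicate 2 the targets split, with *Bbc3* and *Bax* at their highest and *Ccng1* and *Eda2r* at their lowest, where 22.4% of all tested genes were highest and 21.8% lowest. *Trp53* RNA was also highest in this tumor.

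**Figure D3:**
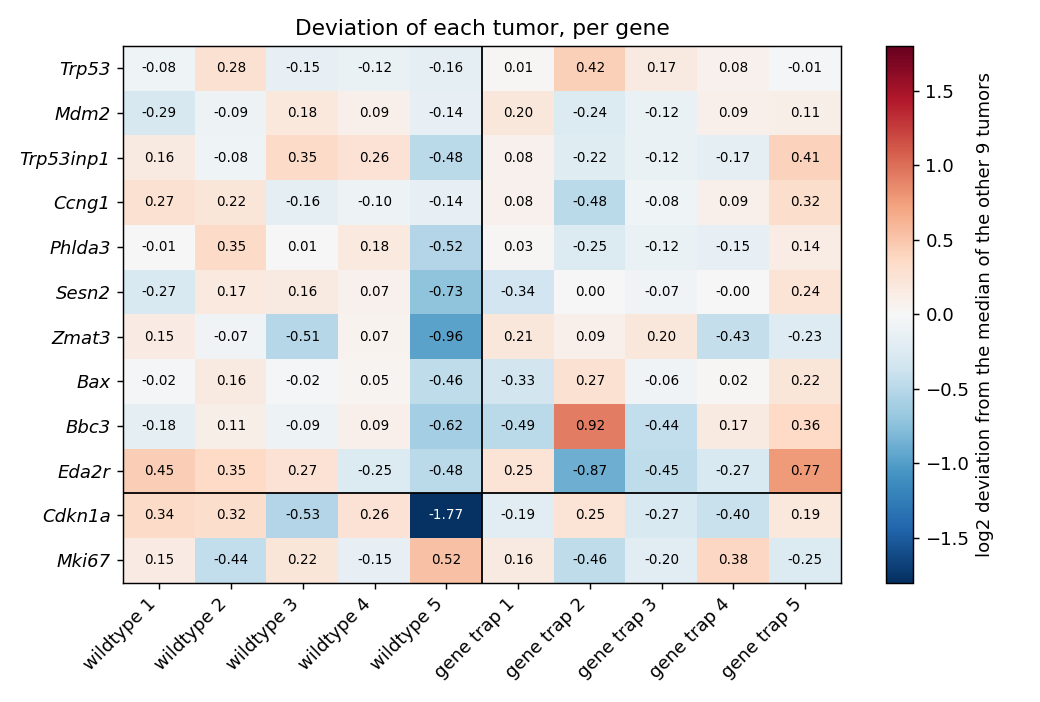
Log2 difference of each tumor (columns, 5 wildtype and 5 gene trap) from the median of the other 9 tumors, for the 10 genes and, under the line, *Cdkn1a* and *Mki67*, with red above and blue below that median. The column of wildtype replicate 5 is blue in all 10 genes and reaches -1.77 for *Cdkn1a*, while gene trap replicate 2 mixes 0.92 for *Bbc3* with -0.87 for *Eda2r*.

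Whether the 10 genes varied together was examined over the 10 tumors with 45 pairwise correlations of log2 values, with p from 100000 permutations and Benjamini-Hochberg adjustment over the 45 pairs. The genes had been chosen with results of these tumors known. In 35 of 45 pairs r was positive, with a median of 0.35. An adjusted p below 0.05 was reached by 3 pairs, and 8 had an unadjusted p below 0.05. No share over pairs of all genes is given beside these counts, so they cannot be called particular to the 10 genes. *Bbc3* and *Bax*, both cell death targets, had r = 0.87 and rho = 0.96 (permutation p = 8.6e-04 and 4e-05, adjusted 0.0211 and 0.0018). Without gene trap replicate 2 and wildtype replicate 5, the 2 tumors farthest from the *Bbc3* median, r was 0.86. This call was lost without both of those tumors and in 4 of the 10 fits that left out a single tumor, with r from 0.85 to 0.90 over the 10. It was also lost after quantile normalization (r = 0.82, permutation p = 0.00347) and after scaling columns to the same total (r = 0.60, permutation p = 0.0704). As deviations from the group means this pair had r = 0.86 (adjusted permutation p = 0.00405).

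*Ccng1* and *Eda2r* had r = 0.89 and rho = 0.76 (permutation p = 9.4e-04 and 0.0147, adjusted 0.0211 and 0.1498), and r fell to 0.68 without gene trap replicates 2 and 5. *Sesn2* and *Bax* had r = 0.87 and rho = 0.82 (permutation p = 0.00162 and 0.00603, adjusted 0.0243 and 0.0904), and r was 0.47 without gene trap replicate 1 and wildtype replicate 5, the tumors with its lowest *Sesn2* values, on which the relation leaned. It was 0.73 without wildtype replicate 5, 0.92 without gene trap replicate 2 and 0.84 without both of these. As deviations from the group means these 2 pairs had r = 0.89 and 0.86, with adjusted permutation p of 0.0921 and 0.0713. The number of pairs that passed was itself unstable. It was 0 when wildtype replicate 1, wildtype replicate 5, gene trap replicate 1 or gene trap replicate 5 was left out, and 3 or 4 when any other tumor was. Without wildtype replicate 5 the positive pairs were 23 of 45 with a median r of 0.01, and without gene trap replicate 2 they were 41 of 45 with a median r of 0.43.

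*Trp53* RNA was not correlated with any target at an unadjusted p below 0.05 (0 of 9). Its r was positive with *Bbc3* (0.60, permutation p = 0.0673), *Bax* (0.56), *Zmat3* (0.45), *Sesn2* (0.32) and *Phlda3* (0.09), and negative with *Eda2r* (-0.42), *Mdm2* (-0.38), *Ccng1* (-0.34) and *Trp53inp1* (-0.32). Gene trap replicate 2 carried much of this split. Without it r with *Bbc3* was 0.17 and with *Ccng1* was 0.38.

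**Figure D4:**
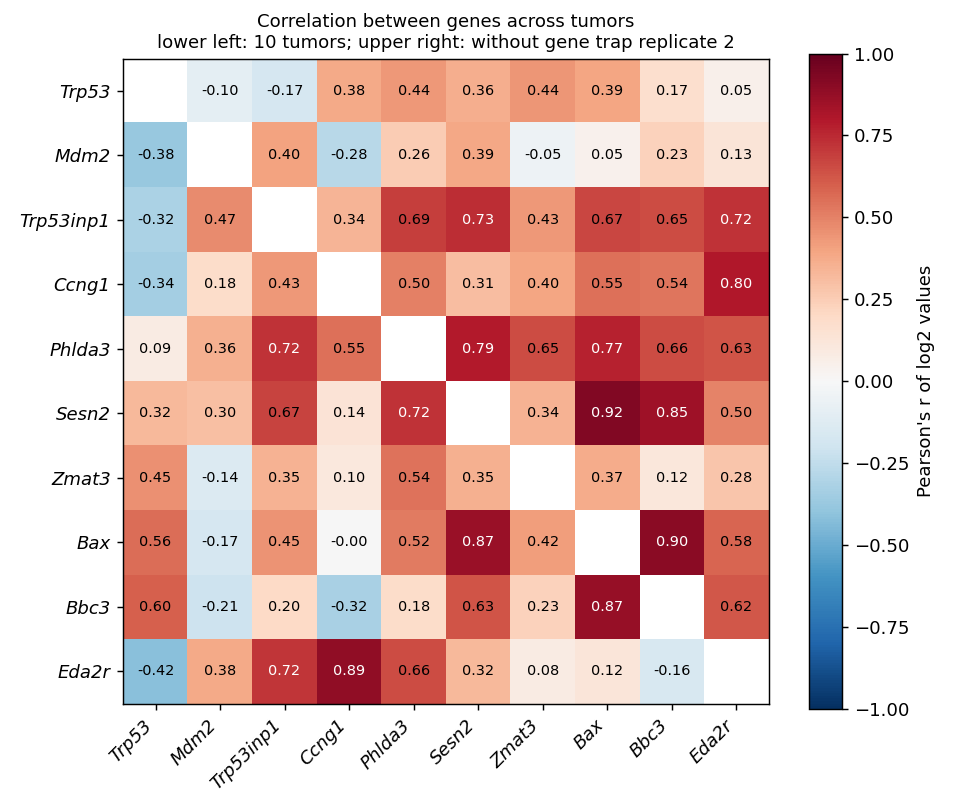
Pearson's r of log2 values for each pair of genes, over 10 tumors in the lower left triangle and over 9 tumors without gene trap replicate 2 in the upper right, on a color scale from -1 (blue) to 1 (red). *Bbc3* with *Bax* is at 0.87 and 0.90, and the *Trp53* column holds 4 negative values in the lower triangle.

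The genes whose pattern was most like that of *Trp53* over the 10 tumors were *Pi4k2a* (r = 0.95), *Safb2* (0.94), *Aatf* (0.94), *Rai1* (0.94) and *Sipa1* (0.93), chosen as the highest r among all tested genes and given without a test. All 5 were highest in gene trap replicate 2, as *Trp53* was, and r without that tumor was 0.90, 0.89, 0.88, 0.88 and 0.90. The genes most like the mean z score of the 9 targets were *Fam174b* (0.94), *Epcam* (0.94), *Hpn* (0.91), *Plpp6* (0.90) and *Tbkbp1* (0.90). All 5 were lowest in wildtype replicate 5, as the target score was. *Fam174b*, *Epcam* and *Hpn* were highest in gene trap replicate 5 and the others in wildtype replicate 2. *Cdkn1a* had r = 0.81 with the target score, *Aen* 0.75, *Wrap53* 0.41, *Resf1* 0.33, *Mdm4* -0.38 and *Mki67* -0.56. With *Trp53* RNA the r of these genes was 0.44, 0.64, 0.65, -0.37, -0.0033 and -0.73, in the same order. These too are descriptions over the same 10 tumors. *Cdkn1a* and *Aen* were also lowest in wildtype replicate 5, and r without that tumor was not computed. For the remaining p53 targets, r with the score is not given.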

How the data were processed

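The authors deposited 1 table of the mouse tumors with estimated counts per gene that they had normalized by median ratio, used here as a signal; the submitters' processing notes name Partek, STAR (version 2.7.8a), DESeq2 and mm39, and the gene annotation and counter are not given in the sources used here. Columns were matched to tumors by name, and 6 of the 16 columns of values matched no label and were not used. Symbols were found for 22899 of 23609 gene IDs.

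Values were tested as log2(value + 1) with limma (version 3.58.1, R 4.3.3), with a mean-variance trend and the groups as the only factor, for genes with a mean of at least 10. Single genes were also compared by exact two-sided permutation over 252 arrangements of the tumors, and pairs of genes by correlation. The limma script was tested on simulated data. The members and gene lists were chosen with earlier results of these data known, and lists were written from general knowledge of the pathway. Named were the 10 members, the 2 smallest p of each list, *Cdkn1a*, *Mdm4*, *Cdkn2a*, *Wrap53*, *Resf1* and the 5 genes most correlated with *Trp53* and with the target score. Replicates were taken to be tumors of different animals, while the tumor titles give only the group and a replicate number. Other normalizations, pseudocounts, filters and weights, a replicate block and leaving out each tumor were tried. Column totals lay between 31995078 and 42153593. Promoters are RefSeq windows of GRCm38.p6, not of the files' build, and figures were drawn with matplotlib (version 3.10.9).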

Additional observations from a re-analysis of the deposited data

Results flagged for a closer look

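Within each group of 5 tumors, the highest and lowest value of 32 named genes were compared with the nearest other value by Dixon's test, and 3 of 64 groups held a value far from the rest, where chance gives about 3.2. *Trp53* was at 1209.15 in wildtype replicate 2 and at 902 to 952 in the other wildtype tumors. *Ddb2*, a DNA repair target, was at 507.122 in wildtype replicate 4 and at 569 to 593 in the others. *Trp73*, a *Trp53* family gene, was at 30.7495 in gene trap replicate 5 and at 7.10 to 12.6 in the other gene trap tumors. No explanation was tested for these values.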

How the results depend on the processing

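The number of genes with an adjusted p below 0.05 stayed at 0, over all genes and over the 10 members, in each of 20 alternatives. Of 200 alternative log2 fold changes of the members, 183 kept their direction and 17 reversed, and *Trp53* and *Zmat3* were the 2 that never reversed. The replicate block, the other filters on low values and the fit without a mean-variance trend could not change a member's log2 fold change. Their part of the 183 was therefore fixed in advance and does not speak to stability. With array weights *Ccng1* was at 0.0441. With wildtype replicate 5 and gene trap replicate 2 both left out, *Ccng1* was at 0.0249, *Sesn2* at -0.0768, *Bbc3* at -0.0805, *Bax* at -0.0805, *Cdkn1a* at -0.1695 and *Mki67* at 0.0781. Leaving out each tumor gave log2 fold changes from -0.0149 to 0.0853 for *Mdm2*, -0.1238 to 0.0566 for *Ccng1*, -0.0684 to 0.1615 for *Sesn2*, -0.1976 to 0.0171 for *Phlda3*, -0.3206 to 0.0275 for *Eda2r*, -0.0203 to 0.1646 for *Bax*, -0.1498 to 0.0370 for *Trp53inp1*, -0.4617 to 0.0852 for *Trp73* and -0.1143 to 0.3664 for *Cdkn1a*. The cause of these reversals was not tested.

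Correlated pairs numbered 3 and ranged from 0 to 4 when each tumor was left out. They numbered 1 as deviations from the group means, 1 with Spearman's rho, 0 after quantile normalization and 0 with wildtype replicate 5 and gene trap replicate 2 both left out. Scaling columns to the same total gave 3 pairs, 2 of them shared, with *Bbc3* and *Bax* at r = 0.60 (permutation p = 0.0704), and it moved the median log2 fold change of all genes to -0.02.

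Tumors of the same number share only the number. The correlations of their deviations from the group means lay between -0.16 and 0.15. With the replicate number as a block, 0 genes and 0 members had an adjusted p below 0.05, and 426 genes had an unadjusted p below 0.05 in place of 479. Such a block cannot change a log2 fold change when each number occurs once per group, so that of *Trp53* stayed at 0.17. Its unadjusted limma p went from 0.1367 to 0.05035, with an adjusted p of 0.9997 in both fits. Since sequencing depth is unknown, no counting error could be set beside these values.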
